A study of Homo sapiens with 12 samples.

Results

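TMD8 is an established cell line of diffuse large B-cell lymphoma (DLBCL) of the activated B-cell type, known as background for activating mutations in MYD88 and CD79B that drive chronic NF-kB signalling. The TMD8 experiment consisted of 3 of the 12 RNA sequencing libraries of the study, chosen by their cell line label: TMD8 cells given avadomide, also named CC-122, TMD8 cells given lenalidomide, and TMD8 cells given the solvent DMSO, each for 18 hours. The same treatments of the DLBCL lines U2932, SUDHL-4 and WSU-DLCL2, with 3 libraries per line, served for comparison. The labels used here state no doses, and whether the 2 compounds were given at matched doses is not known. There was 1 library for each line and treatment, and the 2 compounds were set against the same DMSO library in TMD8.

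Avadomide and lenalidomide are cereblon modulators. They bind cereblon, the substrate receptor of a ubiquitin ligase, and redirect it to Ikaros (IKZF1) and Aiolos (IKZF3), transcription factors of lymphocytes that the proteasome then degrades. In B-cell lymphoma this class of drug is known for raising interferon-stimulated genes and, in activated B-cell type lines, for lowering IRF4. Both of those effects concern RNA that follows loss of the proteins, and protein was not measured in these libraries.

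The deposited values are on a log2 scale, so that 1 unit is a 2-fold difference. Their transformation and the read depth behind them are not known, and low values appear compressed. Changes within TMD8 are therefore given as values, with no p-value, for the 12337 genes that reached log2 7 in any TMD8 library. What differed in TMD8 was tested with limma across 22528 genes, as the TMD8 change minus the mean change of the other 3 lines, with Benjamini-Hochberg adjustment over all of them and a threshold of 0.05, two-sided. The spread in that test came from how the other 3 lines differed among themselves, and TMD8 was assumed to vary like them, so the p-values measure a spread between lines and not between TMD8 cultures. Each gene had 1 spread, pooled over both compounds. The SD of the changes over genes was 0.48 with avadomide and 0.24 with lenalidomide in U2932, 0.25 and 0.15 in SUDHL-4, and 0.47 and 0.19 in WSU-DLCL2. The pooled spread may thus be too small for avadomide and too large for lenalidomide, which was not tested.

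The TMD8 libraries carried the defining markers of B cells. All 10 B-cell markers were above log2 11 in every TMD8 library, with MS4A1 (CD20) at 16.49 with avadomide, 16.57 with lenalidomide and 16.73 with DMSO, and CD79A at 15.32, 15.22 and 15.08 in the same order. All 15 activated B-cell type classifier genes reached log2 7, but so did 12 of the 13 tested germinal-centre type classifier genes. Reaching that level therefore does not separate the subtypes. IRF4, the factor that defines this subtype, was at 16.49 in TMD8 with DMSO, against 14.71 in U2932, 8.11 in SUDHL-4 and 9.66 in WSU-DLCL2 with DMSO. Pearson's r between TMD8 libraries ran from 0.9883 to 0.9968 over the tested genes, and between TMD8 libraries and those of other lines from 0.89 to 0.916. The number of genes at log2 5 or more was 14819 with avadomide, 14653 with lenalidomide and 14566 with DMSO.

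Markers of other cell types moved with treatment, and their part in the results was not tested. Of 14 myeloid markers, 7 were under log2 1 in all TMD8 libraries (FCGR3A, FCN1, CD163, S100A8, S100A9, MPO and ELANE), and the 8 tested members were all above 0 with avadomide, with a median change of 2.20 in TMD8, 0.97 in U2932, -0.08 in SUDHL-4 and 0.70 in WSU-DLCL2; with lenalidomide the TMD8 median was 1.12. Of these 8, 5 were at least 2-fold higher with avadomide, and 2 of the 8 were at log2 7, ITGAX and CHI3L1. LYZ (lysozyme) was at 4.11 with avadomide, 2.12 with lenalidomide and 0.52 with DMSO, ITGAM (CD11b) at 5.83, 4.40 and 3.34, and CSF1R, the receptor of macrophage colony-stimulating factor, at 6.54, 5.81 and 4.63. The list's summed linear level was 40758 with avadomide, 21590 with lenalidomide and 6985.4 with DMSO. That sum was mostly ITGAX (CD11c), an integrin also found on some B cells, which stood at log2 15.26, 14.38 and 12.76. In the other lines ITGAX did not exceed log2 5.18, so a difference in response cannot be told apart from a difference in expression. Its avadomide change in TMD8 exceeded that of the other lines by 2.55 ± 0.48 (SE; limma adjusted p = 0.0466; range over the alternatives 0.0183 to 0.181), and the adjusted p was 0.181 without SUDHL-4 and 0.128 without WSU-DLCL2. Of 19 T and NK cell markers, 7 were under log2 1 throughout (CD3D, CD8B, CD7, GNLY, GZMA, KLRD1 and NCAM1), with sums of 45217, 98660 and 87555, mostly of GZMB, at log2 15.38, 16.57 and 16.39. Of the 5 at log2 7, 1 was at least 2-fold higher with avadomide (CD4) and 1 at least 2-fold lower. Among the 12 tested, 1 had an avadomide change above the other lines by the test and 0 were below, where the shares of all tested genes were 1.19% and 0.510%. The gene was NKG7, named after its values were seen. It stayed under log2 7 in every TMD8 library, where values appear compressed. Of 14 stromal, endothelial and epithelial markers, 4 were under log2 1 (PDGFRA, CDH5, KRT18 and KRT19), and the sums were 17755, 16078 and 16510. Of the 5 at log2 7, 3 were at least 2-fold higher with avadomide (COL1A1, PECAM1 and KRT8) and 0 at least 2-fold lower. The shares of all genes counted were 4.71% and 1.16%. Among the 9 tested members, 5 were above 0 and 4 below.

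More genes passed a 2-fold difference from DMSO with avadomide than with lenalidomide in TMD8. With avadomide, 581 genes were at least 2-fold higher than with DMSO (4.71% of those counted) and 143 were at least 2-fold lower (1.16%). With lenalidomide, 138 were at least 2-fold higher (1.12%) and 9 at least 2-fold lower (0.0730%). The standard deviation of the log2 change over the same genes was 0.601 with avadomide and 0.257 with lenalidomide. Of the genes at least 2-fold higher, 236 of 581 with avadomide and 94 of 138 with lenalidomide were under log2 7 with DMSO, where values appear compressed. When each library was centred on its median, the split with avadomide became 416 higher and 215 lower. That centring moved the median avadomide change of all tested genes in TMD8 to -0.17, against 0.01 as deposited.

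Among the 4 lines, TMD8 had the highest counts of genes at least 2-fold higher under each compound and of genes at least 2-fold lower with avadomide, while U2932 had the most genes at least 2-fold lower with lenalidomide. The corresponding counts with avadomide, each over the genes at log2 7 in that line, were 395 higher and 79 lower in U2932, 47 and 10 in SUDHL-4, and 319 and 39 in WSU-DLCL2. With lenalidomide they were 91 and 14 in U2932, 1 and 0 in SUDHL-4, and 45 and 2 in WSU-DLCL2. These counts describe single libraries and were not tested against each other.

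**Figure D1:**
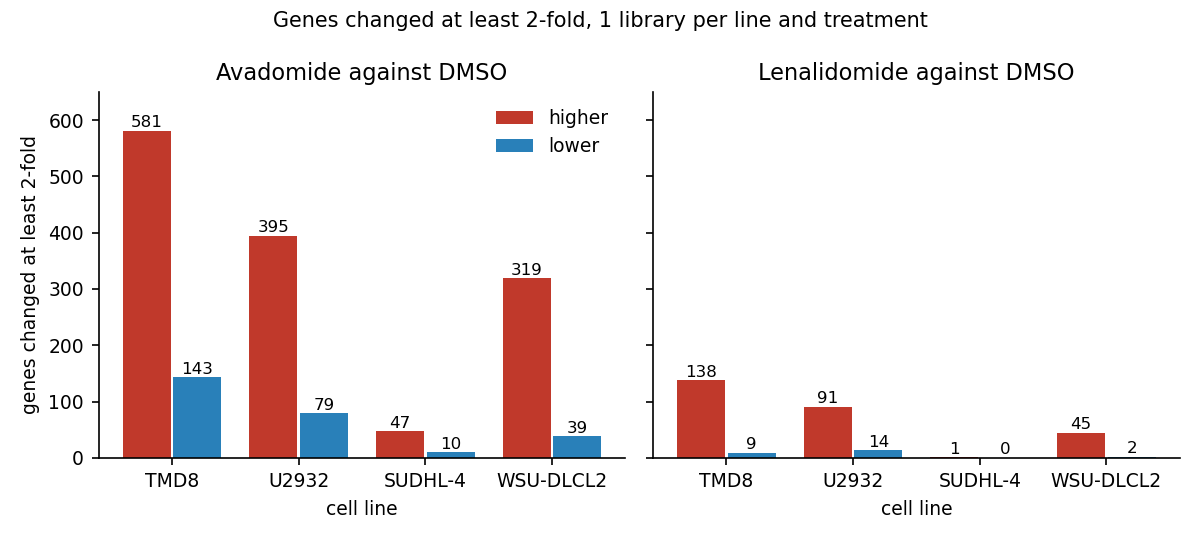
Number of genes changed at least 2-fold against DMSO (vertical axis) in each cell line (horizontal axis), with avadomide on the left and lenalidomide on the right; red bars are higher genes and blue bars lower genes, 1 library per line and treatment. TMD8 has 581 higher and 143 lower genes with avadomide, and 138 and 9 with lenalidomide.

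The genes with the highest rises in TMD8 were largely silent or low with DMSO. CHI3L1, a secreted chitinase-like glycoprotein, was at log2 10.35 with avadomide, 6.69 with lenalidomide and 2.13 with DMSO. A2M, a secreted protease inhibitor, was at 10.83, 6.78 and 4.57 in the same order, and TIFAB, a regulator of the adaptor TIFA, at 9.82, 7.28 and 3.62. In each of these the lenalidomide library lay between the others. They were picked by their avadomide rise, which by itself favours a smaller change with lenalidomide. The remaining genes among the 10 highest avadomide rises were ACVRL1, a receptor of the TGF-beta superfamily, the small GTPase gene RAB7B, the inhibitory receptor CD300A, EGF, and the interferon-stimulated genes LGALS3BP, IFI27 and IFI44L, with log2 changes between 5.81 and 6.67.

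FRMPD1, a scaffold gene, showed the largest fall in TMD8, at 6.43 with avadomide, 8.81 with lenalidomide and 10.49 with DMSO. CR1L, a complement receptor 1-like gene, followed at 6.86, 9.37 and 10.56. GDF7, a bone morphogenetic protein ligand, was at 6.29, 8.06 and 9.40, and TGM2, a transglutaminase, at 7.04, 8.45 and 9.85. KLF2, a transcription factor of lymphocyte quiescence, was at 6.30, 7.63 and 8.61. Again the lenalidomide library was intermediate in every one of these genes, which were picked by their avadomide fall. In U2932, SUDHL-4 and WSU-DLCL2 KLF2 did not exceed log2 1.61 in any library.

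Interferon-stimulated genes were higher with avadomide in TMD8 for all 55 tested members of the list as deposited, and for 53 of 55 after median-centring. These genes are switched on through factors that bind an interferon-stimulated response element. Among the genes at least 2-fold higher in TMD8 with avadomide, 4 interferon list members were picked for promoters that hold the half-site pattern of that element (GAAA, any 2 bases, then GAAA, on either strand), and are printed here to show its spacing. The sequences are RefSeq promoters on GRCh38.p14, 5′ to 3′ on the gene's strand, and capitals mark the matches. The IFI27 stretch holds 2 matches, and the IFI44L promoter holds 2, of which 1 lies in the stretch printed.
LGALS3BP, chr17:78979952-78980001, minus strand: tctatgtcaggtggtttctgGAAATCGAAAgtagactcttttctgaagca
IFI27, chr14:94110608-94110670, plus strand: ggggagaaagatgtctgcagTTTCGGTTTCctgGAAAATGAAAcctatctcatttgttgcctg
IFI44L, chr1:78620355-78620404, plus strand: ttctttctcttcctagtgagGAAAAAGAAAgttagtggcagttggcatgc
IFI44, chr1:78649751-78649788, plus strand: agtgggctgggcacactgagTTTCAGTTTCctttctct

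The pattern was in the 250 bases before the start site of 56.8% of the interferon list (25 of 44 with a promoter in the table), 14% of the genes at least 2-fold higher with lenalidomide (13 of 93) and 8.76% of those at least 2-fold higher with avadomide (34 of 388). It was in 5.21% of those at least 2-fold lower with avadomide (5 of 96), in 1.88% of the genes whose avadomide change was above that of the other lines by the test (3 of 160) and in 4.62% of those below (3 of 65), against 2.65% of the genes counted in TMD8 (233 of 8797) and 3.07% of all 27305 promoters. A related pattern bound by a complex of an ETS factor and IRF4 or IRF8 (GGAA, any 2 bases, then GAAA, on either strand) was in 18.2% of the interferon list, 6.45% of the genes at least 2-fold higher with lenalidomide, 5.15% of those at least 2-fold higher and 0% of those at least 2-fold lower with avadomide, 2.5% of those above and 1.54% of those below the other lines, 2.32% of the genes counted and 2.44% of all promoters. A promoter can hold both patterns. These are matches of letters and not measured binding.

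Of the 51 members of the type I interferon response list at log2 7 in TMD8, 38 were at least 2-fold higher and 0 at least 2-fold lower with avadomide, against the 4.71% and 1.16% of all genes counted. With lenalidomide, 13 were at least 2-fold higher and 0 at least 2-fold lower, against 1.12% and 0.0730% of all genes counted. All 55 tested members were above 0 with avadomide in TMD8, with a median change of 1.94, against 2.09 in U2932, 0.36 in SUDHL-4 and 2.53 in WSU-DLCL2; the median over all tested genes in TMD8 was 0.01. IFI27, a mitochondrial and nuclear envelope protein, was at 12.66 with avadomide, 8.71 with lenalidomide and 6.63 with DMSO in TMD8. LGALS3BP, a secreted glycoprotein, was at 12.66, 8.90 and 6.63. IFIT1, a cap-binding antiviral protein named here after its values were seen, was at 12.16, 8.58 and 6.42, and its avadomide change of 5.74 in TMD8 compared with 4.79 in U2932, 2.82 in SUDHL-4 and 7.34 in WSU-DLCL2. IFI27, LGALS3BP and IFIT1 were under log2 7 with DMSO, and were counted through the treated libraries where they were high.

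Of the 55 members, 1 had an avadomide change in TMD8 above that of the other lines by the test, and 0 were below. That is near the share of all tested genes, 1.19% above and 0.510% below. The member was IFI27, whose TMD8 change exceeded that of the other lines by 4.35 ± 0.79 (SE; limma adjusted p = 0.0429). Its changes were 6.03 in TMD8, 2.20 in U2932, 0.31 in SUDHL-4 and 2.53 in WSU-DLCL2. Over the alternatives its adjusted p ran from 0.0296 to 0.135, and it was 0.0703 without U2932 and 0.105 without WSU-DLCL2. For the remaining members no difference from the other lines was detectable, which does not show that the lines responded alike.

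The regulators upstream moved less evenly. Of 31 genes of interferon production and signalling at log2 7, 4 were at least 2-fold higher and 1 at least 2-fold lower with avadomide (4.71% and 1.16% of all genes counted). IRF7, which amplifies interferon production and is repressed by Ikaros and Aiolos in DLBCL as background, was at 11.82 with avadomide, 10.16 with lenalidomide and 9.40 with DMSO, with avadomide changes of 2.42 in TMD8, 2.37 in U2932, -0.06 in SUDHL-4 and 2.88 in WSU-DLCL2. TMEM173, which encodes the DNA-sensing adaptor STING, was at 8.94, 6.19 and 3.56. Only its avadomide library reached log2 7, so TMEM173 was counted through the library where it was high.

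IRF8 went the other way. This factor of germinal-centre B cells, at chr16:85898803-85922609 on GRCh38, was at 11.80 with avadomide, 12.26 with lenalidomide and 12.84 with DMSO in TMD8, and between 14.11 and 14.40 in all 9 libraries of the other lines. Its avadomide change of -1.04 in TMD8 compared with -0.28 in U2932, -0.16 in SUDHL-4 and -0.11 in WSU-DLCL2. The TMD8 change was lower than theirs by a difference of -0.86 ± 0.09 (SE; limma adjusted p = 0.00598). Over the alternatives the adjusted p ran from 0.00325 to 0.0706, and it was 0.0706 without SUDHL-4 and 0.0642 without WSU-DLCL2.

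In TMD8 the RNA of cereblon (CRBN) and IKZF3 changed little with avadomide, by 0.0066 and 0.18. IKZF1 was higher by 0.63, which was 0.46 after median-centring. CRBN was at 11.29 with avadomide, 11.22 with lenalidomide and 11.29 with DMSO. IKZF1 was at 16.34, 16.04 and 15.71, and IKZF3 at 14.81, 14.65 and 14.63. IKZF2 (Helios), at 9.78, 8.99 and 8.75, was the single gene of the 17 in the cereblon list that was at least 2-fold higher with avadomide, by 1.04 on the log2 scale, which was 0.86 after median-centring. With 0 of the 17 at least 2-fold lower, these counts are near the 4.71% and 1.16% of all genes counted. No difference between TMD8 and the other lines was detectable for CRBN, IKZF1, IKZF3 or IKZF2 (limma adjusted p between 0.480 and 0.965).

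SPI1 was the B-cell transcription factor that set TMD8 apart most firmly. It encodes PU.1, an ETS factor that pairs with IRF4 and IRF8 on composite DNA elements, and lies at chr11:47354860-47378576 on GRCh38. SPI1 was at 12.33 with avadomide, 11.41 with lenalidomide and 10.71 with DMSO in TMD8, against 11.04, 11.03 and 10.97 in U2932, 12.29, 12.36 and 12.38 in SUDHL-4, and 11.75, 11.68 and 11.67 in WSU-DLCL2. The 3 TMD8 libraries spread over more than 1 log2 unit, while those of each other line lay within 0.1 of each other. The TMD8 avadomide change exceeded the others by 1.61 ± 0.09 (SE; 95% interval 1.39 to 1.82; limma adjusted p = 0.00211), and the adjusted p stayed under 0.05 under every alternative.

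Of 24 B-cell fate factors at log2 7, 2 were at least 2-fold higher with avadomide (SPI1 and ID3) and 2 at least 2-fold lower (KLF2 and IRF4). ID3, an inhibitor of E proteins, was at 11.56 with avadomide, 10.38 with lenalidomide and 9.90 with DMSO. IRF4 (chr6:391739-411447 on GRCh38), which TMD8 and other activated B-cell type lines depend on, was at 15.35, 16.19 and 16.49. Its avadomide change was -1.14 in TMD8, -0.68 in U2932, 0.02 in SUDHL-4 and 1.51 in WSU-DLCL2. The avadomide change was below 0 in the 2 lines with the highest IRF4 with DMSO, but the difference of TMD8 from the others of -1.42 ± 0.67 (SE) did not pass the test (limma adjusted p = 0.354).

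BCL6, the germinal-centre repressor, was at 14.06 with avadomide, 13.52 with lenalidomide and 13.35 with DMSO in TMD8, and its avadomide change of 0.71 compared with -0.25 in U2932, 0.01 in SUDHL-4 and -0.41 in WSU-DLCL2. The difference was 0.93 ± 0.15 (SE; limma adjusted p = 0.0317; range over the alternatives 0.0314 to 0.122). It was 0.0803 without U2932, 0.0535 without SUDHL-4, 0.0879 without WSU-DLCL2 and 0.0861 after median-centring. AFF3, a nuclear protein of B cells, had a TMD8 change of 0.78, above the others by 0.96 ± 0.14 (SE; limma adjusted p = 0.0234; range 0.0163 to 0.125); it was 0.0877 without SUDHL-4 and 0.125 without WSU-DLCL2.

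**Figure D2:**
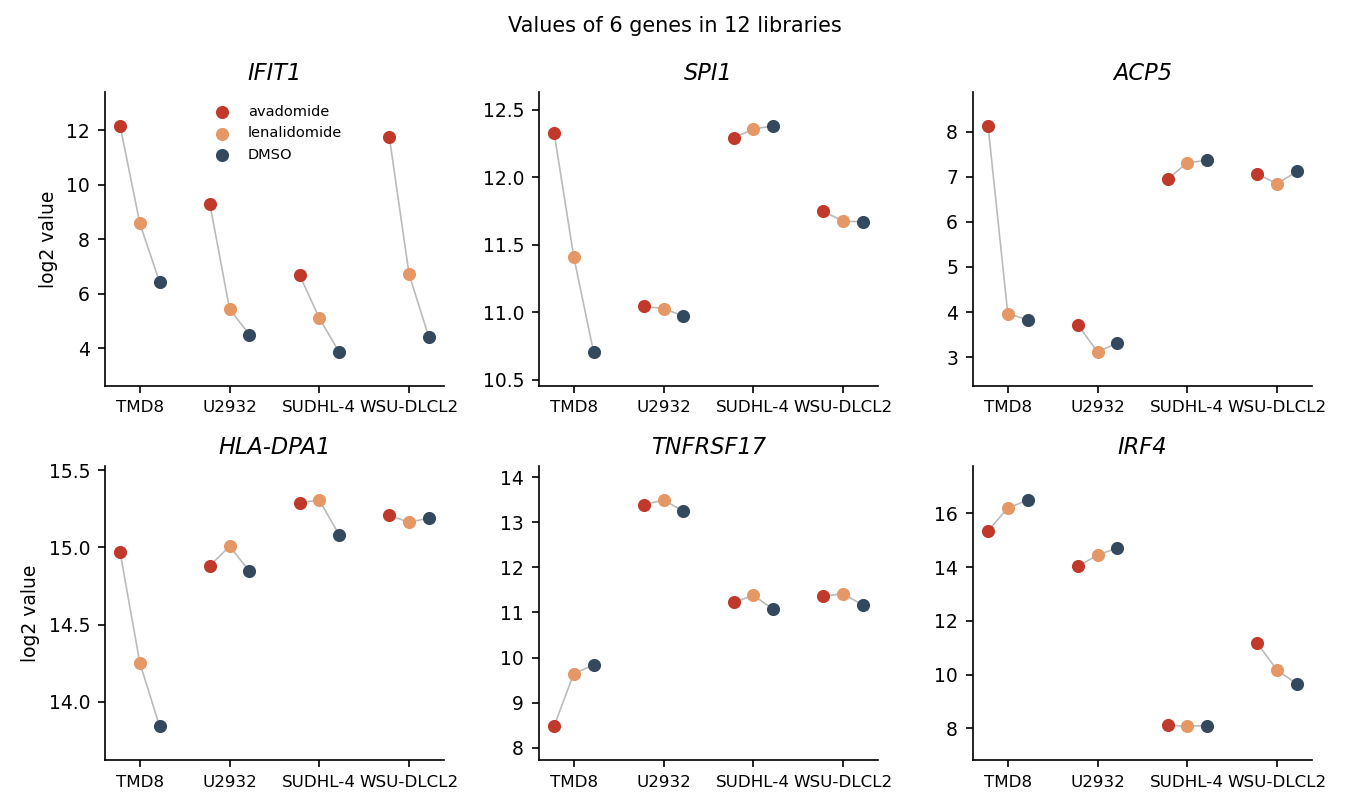
Deposited log2 values (vertical axes, a different range in each panel) of 6 genes in the 12 libraries, by cell line (horizontal axis); red points are avadomide, orange lenalidomide and dark points DMSO, and grey lines join libraries of 1 line. SPI1, ACP5 and HLA-DPA1 are higher, and TNFRSF17 lower, with avadomide in TMD8 than with DMSO, while IFIT1 is higher with avadomide in all 4 lines and IRF4 differs in direction between lines.

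TNFRSF17 was the plasma cell gene that most clearly separated TMD8 from the other lines. It encodes BCMA, the receptor for BAFF and APRIL that sustains plasma cells, and lies at chr16:11965107-11968068 on GRCh38. TNFRSF17 was at 8.48 with avadomide, 9.64 with lenalidomide and 9.83 with DMSO in TMD8, against 13.39, 13.49 and 13.25 in U2932, 11.22, 11.38 and 11.07 in SUDHL-4, and 11.36, 11.42 and 11.16 in WSU-DLCL2. Avadomide was lower than DMSO in TMD8 and higher than DMSO in each other line. The difference was -1.52 ± 0.08 (SE; 95% interval -1.71 to -1.33; limma adjusted p = 0.00211), and its adjusted p stayed under 0.05 under every alternative.

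Of the 23 plasma cell and secretory genes at log2 7 in TMD8, 3 were at least 2-fold lower with avadomide (TNFRSF17, IRF4 and SLAMF7) and 0 at least 2-fold higher, against 1.16% and 4.71% of all genes counted. SLAMF7, a surface receptor of plasma and NK cells, was at 11.08 with avadomide, 12.03 with lenalidomide and 12.20 with DMSO; PRDM1 (BLIMP1), the master factor of plasma cells, was at 12.15, 12.46 and 12.91. Neither differed from the other lines by the test (limma adjusted p = 0.133 for SLAMF7 and 0.0970 for PRDM1). JCHAIN, the joining chain of polymeric immunoglobulin, named here after its values were seen, was at 10.16, 10.57 and 10.68. Its change of -0.53 in TMD8 compared with 0.34 in U2932, 0.55 in SUDHL-4 and 0.40 in WSU-DLCL2, a difference of -0.95 ± 0.09 (SE; limma adjusted p = 0.00483). The highest adjusted p for JCHAIN over the alternatives was 0.0569, and the call was lost without WSU-DLCL2. Over the 24 tested members the median change was -0.15 in TMD8, 0.11 in U2932, 0.07 in SUDHL-4 and 0.03 in WSU-DLCL2.

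Of the 17 tested genes of MHC class II presentation, which serve to present peptides to CD4 T cells, 14 were above 0 in TMD8 with avadomide and 3 below, at -0.32 for RFXAP and -0.18 for RFXANK, subunits of the class II promoter factor RFX, and -0.0061 for HLA-DOB. All 17 were at log2 7, and 5 of them were at least 2-fold higher with avadomide (HLA-DQB1, HLA-DPA1, HLA-DPB1, HLA-DRB5 and HLA-DRB1), with 0 lower, against 4.71% and 1.16% of all genes counted. After median-centring 1 of the 5, HLA-DQB1, was still at least 2-fold higher, and 12 of 17 were above 0. In the other lines 0 of 17 were changed at least 2-fold. The median change was 0.88 in TMD8, 0.16 in U2932, -0.18 in SUDHL-4 and 0.13 in WSU-DLCL2, and in TMD8 it was 0.70 after median-centring. With lenalidomide the TMD8 median was 0.17 and 0 members reached 2-fold, where 1.12% of all genes counted were higher and 0.0730% lower. HLA genes are polymorphic and near-identical, so reads may be split between them, and these values are uncertain in that respect.

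HLA-DPA1 (chr6:33064569-33080775 on GRCh38) was at 14.97 with avadomide, 14.25 with lenalidomide and 13.84 with DMSO in TMD8. With DMSO the other lines stood at 14.85 in U2932, 15.08 in SUDHL-4 and 15.19 in WSU-DLCL2, so TMD8 was the lowest with DMSO and within the range of the other lines' libraries with avadomide. The TMD8 change exceeded theirs by 1.04 ± 0.11 (SE; limma adjusted p = 0.00681; range over the alternatives 0.00252 to 0.0576), and passed the threshold without each line in turn. HLA-DPB1, at 13.63, 12.78 and 12.57 in TMD8, had a difference of 1.04 ± 0.13 (SE; limma adjusted p = 0.0132; range 0.0102 to 0.0896), which was 0.0782 without SUDHL-4 and 0.0896 without WSU-DLCL2. HLA-DMA, a peptide-loading chaperone named after its values were seen, differed by 0.75 ± 0.12 (SE; limma adjusted p = 0.0287) and lost its call without any 1 of the lines, with a highest adjusted p of 0.115. CIITA, the class II transactivator, was at 13.88, 13.25 and 13.14, and its difference did not pass the test (limma adjusted p = 0.316). None of the 14 class II promoters in the table held either of the 2 patterns above.

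**Figure D3:**
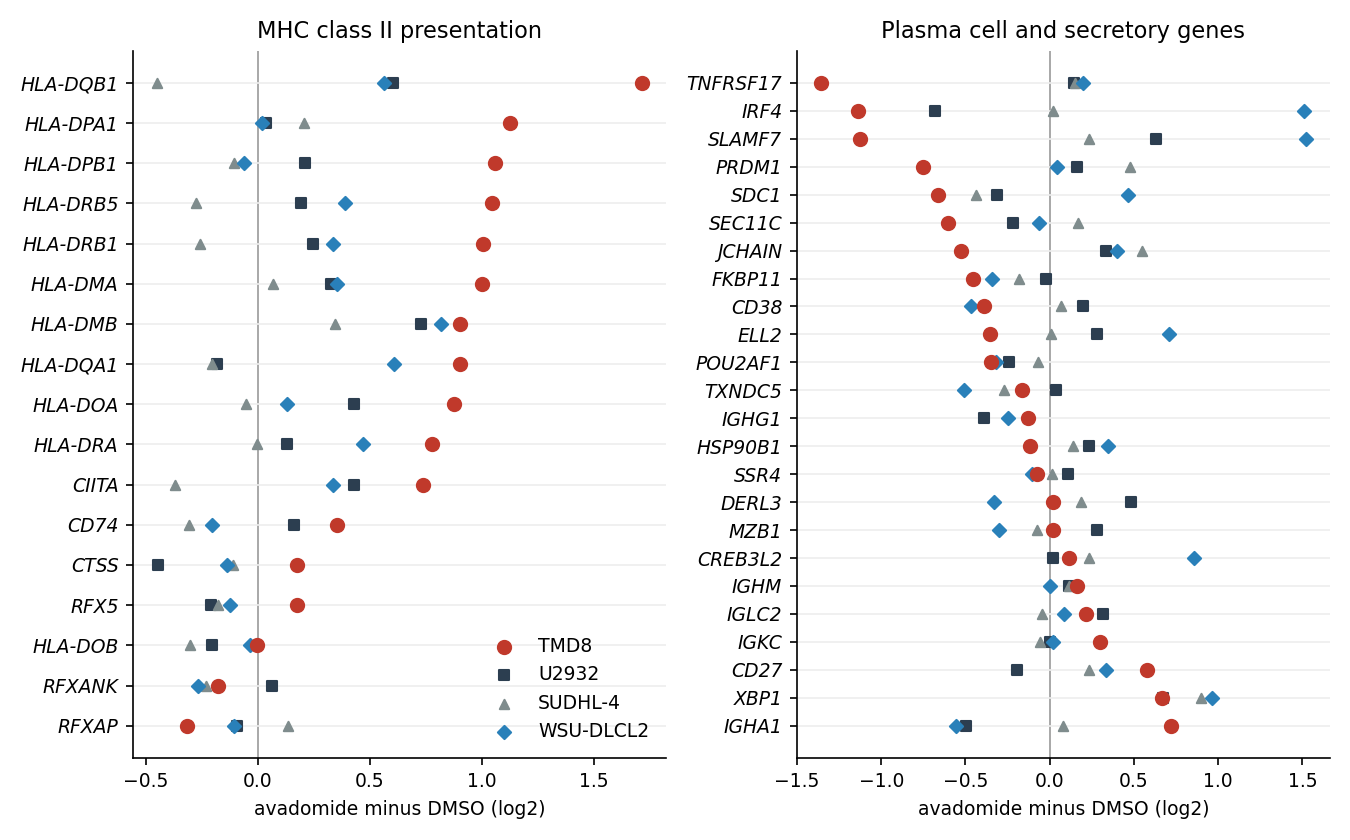
Change with avadomide against DMSO (horizontal axes, log2) of each tested MHC class II gene (left) and plasma cell or secretory gene (right), with 1 point per line: red circles TMD8, dark squares U2932, grey triangles SUDHL-4 and blue diamonds WSU-DLCL2. TMD8 is the highest of the 4 lines at HLA-DQB1, HLA-DPA1 and HLA-DPB1 and the lowest at TNFRSF17, SLAMF7 and JCHAIN.

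NF-kB target genes, which the mutations of TMD8 keep active, showed no common movement. Of 36 genes, 1 was at least 2-fold higher with avadomide (CCL4) and 2 at least 2-fold lower (CCL22 and BCL2A1), against 4.71% and 1.16% of all genes counted, and the median change was -0.06 in TMD8, against -0.0048 in U2932, 0.07 in SUDHL-4 and 0.73 in WSU-DLCL2. CCL22, a chemokine for CCR4-bearing T cells, was at 8.69 with avadomide, 10.16 with lenalidomide and 10.73 with DMSO in TMD8. BCL2A1, an anti-apoptotic BCL2 relative, was at 12.35, 13.21 and 13.70. Neither gene's TMD8 change differed from the other lines by the test (limma adjusted p = 0.184 for CCL22 and 0.279 for BCL2A1). Of 29 genes of B-cell and Toll-like receptor signalling, 0 changed at least 2-fold in either direction with avadomide.

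Along the JAK-STAT3 pathway, 3 of 20 genes at log2 7 were at least 2-fold higher with avadomide and 0 at least 2-fold lower (4.71% and 1.16% of all genes counted), with IL6R under 2-fold after median-centring. LIF, a cytokine that signals through the shared receptor IL6ST, was at 10.35 with avadomide, 9.34 with lenalidomide and 8.86 with DMSO. IL6ST itself was at 10.22, 9.12 and 8.81, and the receptor chain IL6R at 11.02, 10.24 and 9.85. STAT3, the transducer of this pathway, was at 14.85, 15.15 and 15.34, and its change of -0.50 in TMD8 compared with 0.15 in U2932, 0.05 in SUDHL-4 and 0.10 in WSU-DLCL2. The STAT3 difference was -0.60 ± 0.08 (SE; limma adjusted p = 0.0120; range over the alternatives 0.00599 to 0.0946), and was 0.0787 without SUDHL-4 and 0.0946 without WSU-DLCL2.

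Of 31 chemokine, cytokine and receptor genes at log2 7, 8 were at least 2-fold higher and 2 at least 2-fold lower with avadomide (4.71% and 1.16% of all genes counted). CXCL13, a chemokine that draws B cells into follicles, was at 12.16 with avadomide, 11.26 with lenalidomide and 10.17 with DMSO in TMD8, and at most 2.77 in any library of the other lines. At those levels a difference in response between TMD8 and the other lines cannot be told apart from a difference in expression, and no test is given for CXCL13. CXCL10, an interferon-induced chemokine, was at 11.81, 10.45 and 9.15, and its changes of 2.67 in TMD8, 3.85 in U2932, 0.97 in SUDHL-4 and 5.50 in WSU-DLCL2 did not set TMD8 apart by the test (limma adjusted p = 0.851). Of the members that the test placed above the other lines, CXCR4, IL21R and IL12RB1, named after their values were seen, had differences of 1.05, 0.68 and 1.04 and a highest adjusted p over the alternatives of 0.194, 0.181 and 0.160, each losing its call without WSU-DLCL2. TNFSF13B, which encodes the B-cell survival ligand BAFF, was at 8.87, 5.65 and 4.80 (limma adjusted p = 0.380 for the difference). Only its avadomide library reached log2 7, so TNFSF13B was counted through the library where it was high.

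Of 19 checkpoint and recognition ligands at log2 7, 3 were at least 2-fold higher with avadomide (LAG3, PDCD1LG2 and MICA) and 1 at least 2-fold lower (SLAMF7), against 4.71% and 1.16% of all genes counted. LAG3, an inhibitory receptor for MHC class II, was at 8.59 with avadomide, 7.40 with lenalidomide and 5.79 with DMSO. PDCD1LG2, which encodes PD-L2, was at 8.04, 6.50 and 5.89. MICA, a stress ligand for NK cells, was at 10.72, 10.19 and 9.51. LAG3 and PDCD1LG2 were under log2 7 with DMSO and were counted through the treated libraries where they were high, PDCD1LG2 through avadomide alone. No difference between TMD8 and the other lines passed the test in this list.

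In MHC class I presentation, 1 of 20 genes at log2 7 was at least 2-fold higher with avadomide and 0 were at least 2-fold lower, which is near the 4.71% and 1.16% of all genes counted. The gene was HLA-F, a class Ib molecule, at 10.47 with avadomide, 9.36 with lenalidomide and 8.52 with DMSO, with changes of 1.95 in TMD8, 1.25 in U2932, -0.18 in SUDHL-4 and 1.08 in WSU-DLCL2 (limma adjusted p = 0.273 for the difference). The class I list had a median change of 0.20 in TMD8, which was 0.03 after median-centring.

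Genes that separate the DLBCL subtypes moved in both directions. Of 15 activated B-cell type classifier genes, 0 were at least 2-fold higher and 2 at least 2-fold lower with avadomide (4.71% and 1.16% of all genes counted), IRF4 and TNFRSF13B (TACI, a receptor for BAFF and APRIL), the second at 10.53 with avadomide, 10.92 with lenalidomide and 11.75 with DMSO. Of 12 germinal-centre type classifier genes at log2 7, 1 was at least 2-fold higher and 0 at least 2-fold lower. STAP1, an adaptor of B-cell receptor signalling, was at 10.22, 9.51 and 8.86, and its TMD8 change exceeded the others by 1.02 ± 0.10 (SE; limma adjusted p = 0.00598; range over the alternatives 0.00392 to 0.0517; 0.0501 without WSU-DLCL2). SERPINA9, a serpin of germinal-centre B cells from the same list, was at 9.65, 9.96 and 10.63, with a change of -0.98 in TMD8 against 0.36 in U2932, 0.38 in SUDHL-4 and 0.67 in WSU-DLCL2. The SERPINA9 difference was -1.46 ± 0.16 (SE; limma adjusted p = 0.00696; range 0.00451 to 0.0730; 0.0730 without SUDHL-4).

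MYC and the ribosome biogenesis genes moved little but largely in 1 direction. Of 33 members, 0 changed at least 2-fold with avadomide, 28 were below 0 in TMD8, and the median change was -0.36 in TMD8, -0.18 in U2932, -0.11 in SUDHL-4 and -0.15 in WSU-DLCL2. MYC was at 14.03 with avadomide, 14.25 with lenalidomide and 14.48 with DMSO, and ODC1, the polyamine enzyme and a MYC target, at 15.84, 16.19 and 16.36. With lenalidomide 28 of 33 were also below 0, with a TMD8 median of -0.13, from a comparison that shares the DMSO library. No member differed from the other lines by the test. Of 37 cell cycle genes at log2 7, 0 changed at least 2-fold with avadomide. Among all genes counted, 4.71% were at least 2-fold higher and 1.16% at least 2-fold lower. E2F1, the S-phase transcription factor, was at 11.45, 11.93 and 12.18, and CDKN1A, which encodes the p21 inhibitor, at 13.68, 13.41 and 12.82.

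Among 32 apoptosis regulators, 4 were at least 2-fold higher with avadomide and 1, BCL2A1, at least 2-fold lower (4.71% and 1.16% of all genes counted). TNFSF10, which encodes the death ligand TRAIL, was at 9.90 with avadomide, 8.50 with lenalidomide and 8.08 with DMSO. BMF, a pro-apoptotic BH3-only gene, was at 14.50, 13.70 and 13.06. HRK, another BH3-only gene, was at 8.05, 6.87 and 6.76 in TMD8, and its TMD8 change exceeded the others by 1.29 ± 0.23 (SE; limma adjusted p = 0.0386; range over the alternatives 0.0317 to 0.180). It was 0.0822 without U2932, 0.180 without SUDHL-4, 0.0528 without WSU-DLCL2 and 0.0523 after median-centring. HRK reached log2 7 with avadomide alone, so it was counted through the library where it was high.

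Of 24 genes of cholesterol synthesis and uptake, 22 were above 0 in TMD8 with avadomide as deposited and 16 after median-centring, with a median change of 0.30 in TMD8, -0.05 in U2932, -0.03 in SUDHL-4 and -0.02 in WSU-DLCL2, and the TMD8 median was 0.13 after median-centring. The median over all tested genes in TMD8 was 0.01 as deposited and -0.17 after median-centring. Of 23 members at log2 7, 1 was at least 2-fold higher and 0 at least 2-fold lower. That is near the 4.71% and 1.16% of all genes counted. The gene was ABCA1, the cholesterol exporter, at 9.65 with avadomide, 8.31 with lenalidomide and 7.67 with DMSO. LSS, lanosterol synthase, was at 15.01, 14.79 and 14.47, and exceeded the other lines' change by 0.67 ± 0.08 (SE; limma adjusted p = 0.0109; range over the alternatives 0.00937 to 0.0856); it was 0.0787 without SUDHL-4 and 0.0642 without WSU-DLCL2. Of 35 corepressor and deacetylase genes and 22 genes of the amino acid and unfolded protein response, 0 changed at least 2-fold in TMD8 with avadomide. The TMD8 change was above the other lines by the test for HDAC5, by 0.65, and for HDAC7, named after its values were seen, by 0.46. Both lost the call without any 1 of the lines, with a highest limma adjusted p over the alternatives of 0.129 and 0.165.

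**Figure D4:**
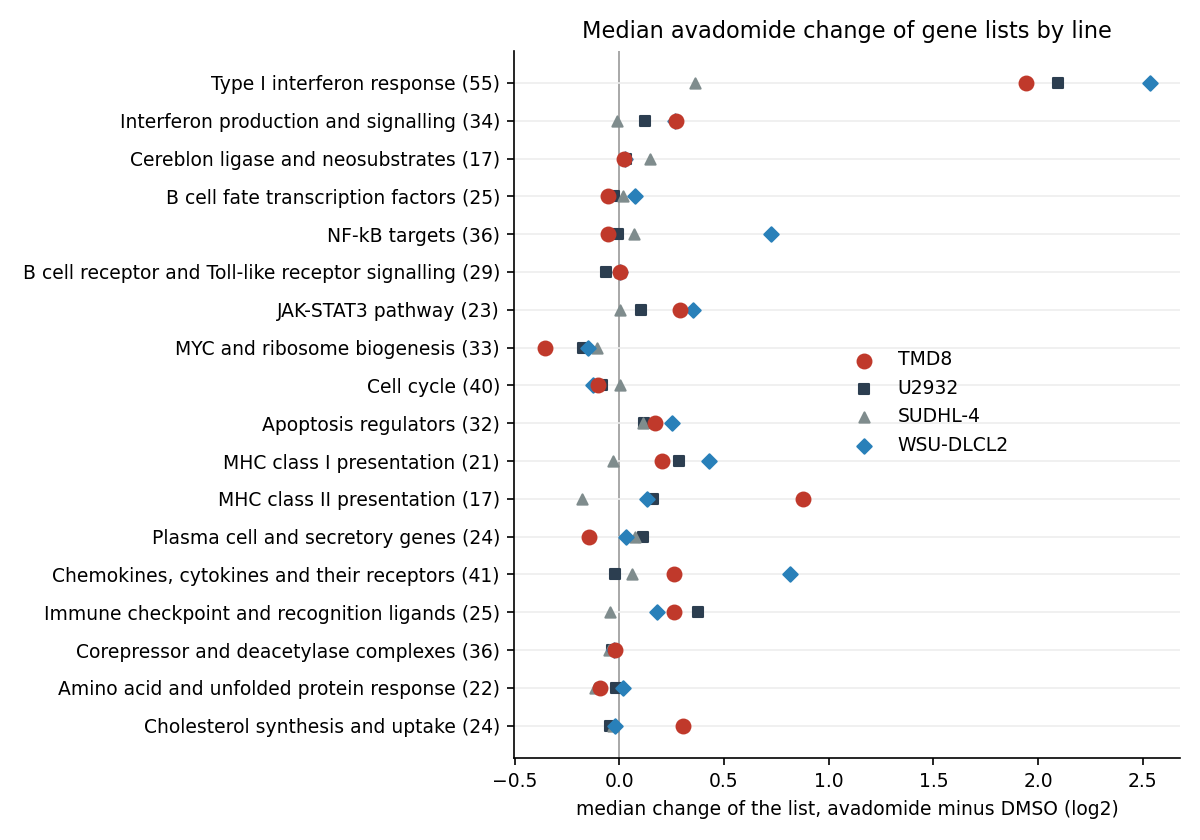
Median avadomide change against DMSO (horizontal axis, log2) of 18 gene lists, with the number of tested members in brackets, and 1 point per line: red circles TMD8, dark squares U2932, grey triangles SUDHL-4 and blue diamonds WSU-DLCL2. The interferon list is at 1.94 in TMD8, between SUDHL-4 and the other 2 lines, while the MHC class II list is at 0.88 in TMD8 and between -0.18 and 0.16 in the others.

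Across all genes, the avadomide change in TMD8 differed from that of the other lines in 384 of 22528 genes, being above theirs in 269 (1.19%) and below in 115 (0.510%). Of these, 309 were at log2 7 in TMD8, with 217 above (1.76%) and 92 below (0.746%), and 252 of the 309 had log2 5 or more in a library of each other line, 40 in 1 or 2 of the lines and 17 in none. For those 17, a difference in response cannot be told apart from a difference in expression. The count rests on which lines are compared: 477 genes were called without U2932, 57 without SUDHL-4 and 66 without WSU-DLCL2. Among the 303 called genes with a symbol at log2 7, 93 lost the call without U2932, 257 without SUDHL-4 and 252 without WSU-DLCL2. By size alone, the TMD8 avadomide change was at least 1 above all 3 other lines in 160 genes (1.30%) and at least 1 below in 67 (0.543%), against 62 and 14 for U2932, 0 and 30 for SUDHL-4 and 75 and 5 for WSU-DLCL2 in its place.

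**Figure D5:**
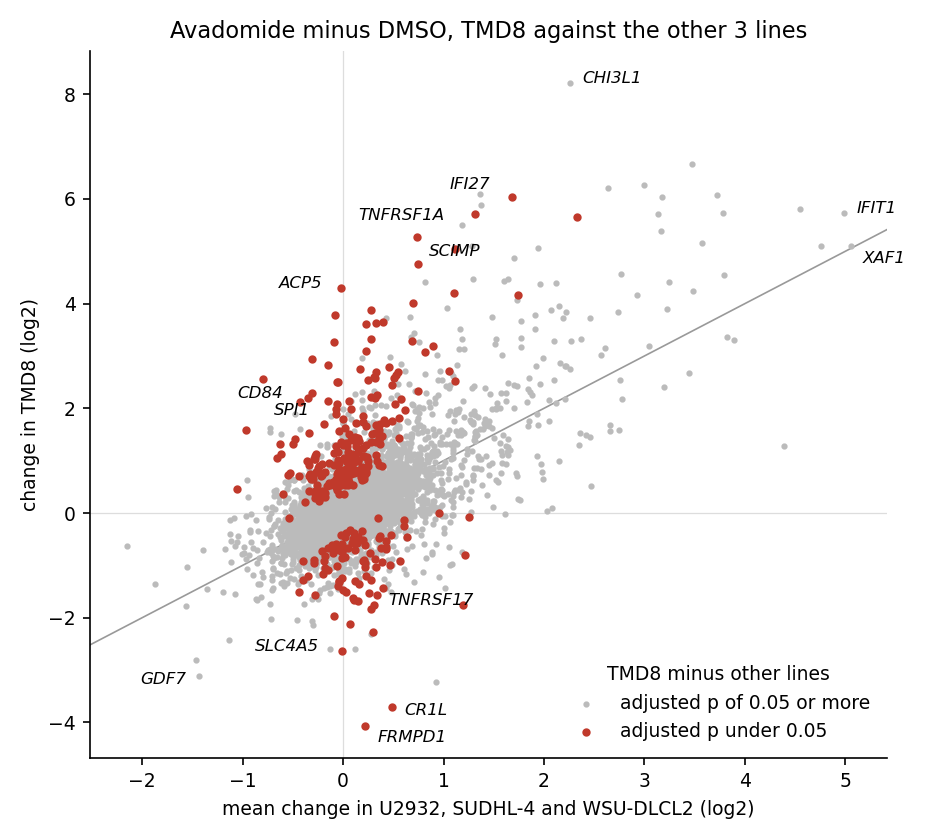
Avadomide change against DMSO in TMD8 (vertical axis, log2) and mean change in U2932, SUDHL-4 and WSU-DLCL2 (horizontal axis, log2) of 12337 genes, with the line of equal change in grey; red points are the 309 genes with a limma adjusted p under 0.05 for the difference. IFIT1 and XAF1 lie near the line at the right, ACP5, CD84 and SPI1 stand above it near or left of 0, and FRMPD1, CR1L and SLC4A5 stand below it.

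Of the 303 called genes with a symbol at log2 7, 24 kept their call under each of the 10 alternative fits that tested them, 20 above and 4 below the other lines. Of the 24, 17 were tested under all 10, while ACP5, ADGRA2, GPR132, PHLDB2, SCIMP, SLC4A5 and LDB3 were left out by the stricter filters on low values. ACP5, tartrate-resistant acid phosphatase (chr19:11574660-11579008 on GRCh38), was at 8.13 with avadomide, 3.96 with lenalidomide and 3.83 with DMSO in TMD8, and its change of 4.30 compared with 0.41 in U2932, -0.42 in SUDHL-4 and -0.05 in WSU-DLCL2 (difference 4.32 ± 0.37 SE; limma adjusted p = 0.00345). SCIMP, an adaptor of Toll-like receptor and MHC class II signalling, was at 10.12, 7.73 and 5.37 (difference 4.01 ± 0.33 SE; limma adjusted p = 0.00338). LDB3, a PDZ and LIM domain gene known from muscle, was at 10.58, 9.19 and 6.71, and at most 4.48 in the other lines (difference 3.59 ± 0.31 SE; limma adjusted p = 0.00345). At those levels a difference in response of LDB3 cannot be told apart from a difference in expression. ACP5 was high in the avadomide library alone, whereas SCIMP and LDB3 were intermediate with lenalidomide.

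SLAMF1 (CD150), an immune receptor that binds its own kind on neighbouring lymphocytes, was at 10.19 with avadomide, 8.35 with lenalidomide and 7.50 with DMSO in TMD8, with a change of 2.69 against 0.58 in U2932, 0.45 in SUDHL-4 and 0.61 in WSU-DLCL2 (difference 2.14 ± 0.16 SE; limma adjusted p = 0.00247). CD84, a related receptor, was at 9.64, 8.25 and 7.52, with a change of 2.12 in TMD8 against -0.56 in U2932, -0.29 in SUDHL-4 and -0.45 in WSU-DLCL2 (difference 2.55 ± 0.18 SE; limma adjusted p = 0.00247). RND1, a small GTPase that loosens the actin skeleton, was at 10.24, 8.54 and 7.46 (difference 2.33 ± 0.16 SE; limma adjusted p = 0.00247). The others above were ADGRA2, AIF1, ALDOC, GPR132, NABP1, PAQR8, PHLDB2, PIK3CG, PPM1M, RAB11FIP1, SPI1, TBC1D13, TIAM1 and TSC22D3, with differences between 0.89 and 3.25.

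The 4 genes of the 24 that were below the other lines were TNFRSF17, SLC4A5, ADAM8 and CNR1; those not already described by the naming rule were named after their values were seen. SLC4A5, a sodium bicarbonate cotransporter, was at 6.28 with avadomide, 8.07 with lenalidomide and 8.92 with DMSO (difference -2.63 ± 0.23 SE; limma adjusted p = 0.00345). ADAM8, a membrane metalloprotease, was at 10.56, 11.60 and 12.08 (difference -1.78 ± 0.17 SE; limma adjusted p = 0.00447). CNR1, the cannabinoid receptor CB1, was at 10.27, 10.56 and 11.20, with a change of -0.92 in TMD8 against 0.47 in U2932, 0.63 in SUDHL-4 and 0.62 in WSU-DLCL2 (difference -1.50 ± 0.11 SE; limma adjusted p = 0.00247).

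A change of at least 0.5 in TMD8 with the opposite sign in all 3 other lines was seen in 129 genes with avadomide (1.05%), 60 of them higher and 69 lower in TMD8, against 39 for U2932, 10 for SUDHL-4 and 23 for WSU-DLCL2 in its place. NLRP7, a NOD-like receptor gene, was at 11.42 with avadomide, 10.27 with lenalidomide and 8.87 with DMSO in TMD8, and its avadomide change of 2.55 stood against -0.54 in U2932, -1.42 in SUDHL-4 and -0.42 in WSU-DLCL2. The NLRP7 difference was 3.35, with a limma adjusted p of 0.0102 (range over the alternatives 0.00419 to 0.0576) and of 0.0510 without WSU-DLCL2. IL12B, the p40 chain of interleukins 12 and 23, was at 6.80, 7.93 and 8.55 in TMD8 and at most 4.88 in the other lines, and its change of -1.76 stood against 1.23 in U2932, 0.88 in SUDHL-4 and 1.49 in WSU-DLCL2. With IL12B that low in the other lines, a difference in response cannot be told apart from a difference in expression. The IL12B difference was -2.96 ± 0.42 (SE; limma adjusted p = 0.0182; range 0.0114 to 0.0823), and was 0.0823 without SUDHL-4 and 0.0771 without WSU-DLCL2.

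Lenalidomide changed fewer genes of TMD8 by at least 2-fold. Its highest rise was CHI3L1, with a change of 4.56 in TMD8 against 2.33 in U2932, 0.02 in SUDHL-4 and 0.19 in WSU-DLCL2. DHRS3, a retinal reductase, came next, at 6.81 with lenalidomide and 2.74 with DMSO. XAF1, an interferon-induced pro-apoptotic gene, was at 10.03 with lenalidomide and 7.29 with DMSO, a change of 2.74 that stood beside 2.60 in U2932, 0.37 in SUDHL-4 and 2.43 in WSU-DLCL2. The 9 genes at least 2-fold lower were ATP12A, FRMPD1, TGM2, GDF7, BACE2, CR1L, ENPP1, MYH11 and RPS3AP5. ATP12A, a proton and potassium pump, was at 5.48 with lenalidomide and 7.20 with DMSO.

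No gene's lenalidomide change in TMD8 differed from the other lines by limma at an adjusted p of 0.05, where 908 genes had an unadjusted p under 0.05. The lowest adjusted p, 0.244, belonged to LDB3, at 9.19 with lenalidomide and 6.71 with DMSO in TMD8, a change of 2.47 against 0.17 in U2932, -0.47 in SUDHL-4 and -0.16 in WSU-DLCL2. By size alone, the lenalidomide change in TMD8 was at least 1 above the other 3 lines in 32 genes (0.259%) and at least 1 below in 3 (0.0243%), and 27 genes had the opposite sign to all 3 (0.219%).

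Avadomide and lenalidomide, whose structures share the glutarimide ring that binds cereblon, were also compared directly in TMD8, without the DMSO library and with doses not known to match. With avadomide, 307 genes were at least 2-fold higher than with lenalidomide (2.49%) and 59 at least 2-fold lower (0.478%), and the split was 225 and 82 after median-centring. Among the genes at least 2-fold higher with avadomide than with DMSO, the median change was 1.57 with avadomide and 0.61 with lenalidomide. Among those at least 2-fold lower it was -1.31 and -0.45. Both sets were picked by the avadomide change, which by itself favours a smaller median change with lenalidomide. These medians therefore cannot rank the compounds. TNFRSF1A, the main receptor of tumour necrosis factor, was at 8.18 with avadomide and 3.69 with lenalidomide, and LILRB2, an inhibitory receptor for MHC class I, at 9.20 and 4.93. F2R, the thrombin receptor, was lower with avadomide, at 10.80, than with lenalidomide, at 12.67, and DMSO lay between at 11.90.

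The gap between the compounds was larger in TMD8 than in the other lines for few genes by the test. In 9 of 22528 genes it differed, above the others in 8 (0.0355%) and below in 1 (0.00444%), and 7 of the 9 were at log2 7, of which 6 were above (0.0486% of the genes counted) and 1 below (0.00811%). The avadomide minus lenalidomide difference was larger in TMD8 by 4.02 ± 0.37 for ACP5, 1.59 ± 0.16 for SLAMF1, 1.47 ± 0.16 for RND1, 1.15 ± 0.12 for SULT1A1, 0.92 ± 0.09 for SPI1 and 0.87 ± 0.09 for ALDOC (SE; limma adjusted p = 0.0490 for each). For TNFRSF17 it was lower in TMD8, by a difference of -1.07 ± 0.08 (SE; limma adjusted p = 0.0313). These calls sit close to the threshold: without U2932 2 genes were called, and without SUDHL-4 or without WSU-DLCL2 0 were, and the highest adjusted p of each named gene over the alternatives was 0.274 or, for SULT1A1, 0.284.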

How the data were processed

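RNA was sequenced from 12 DLBCL libraries. Per the submitters' processing notes STAR, Salmon and MACS were used with hg38; no versions or roles are stated. The authors deposited 1 table of log2 values with 58684 entries, from -2.41 to 20.1; its transformation is not stated, and no counts or depth are known. Entries whose symbol had become a calendar date (28) were left out. The fit used limma 3.58.1 in R 4.3.3 with a trended variance prior, on genes with log2 of at least 1 in at least 4 libraries, with terms for line, treatment and treatment within TMD8, leaving 4 residual degrees of freedom. The fit was tested on simulated data. Coordinates are from GENCODE v29.

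Genes were named by rule: the 10 largest rises and falls per compound, up to 10 per direction per tested difference, up to 6 of opposite sign per compound, 6 study genes (CRBN, IKZF1, IKZF3, IRF4, IRF7 and MYC), up to 4 per direction per list, and the 5 largest differences per direction between compounds. The members, lists and rules were chosen with earlier results of these data known. Alternatives changed the prior, scaling, filters, level and lines.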

Additional observations from a re-analysis of the deposited data

Results flagged for a closer look

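Each result here is a difference between the change in TMD8 and that in the other 3 lines that passed the limma test (adjusted p under 0.05). With avadomide the TMD8 change was above that of the other lines by 4.53 for SP6, 4.40 for TNFRSF1A, 4.35 for IFI27, 4.32 for ACP5, 4.01 for SCIMP, 3.94 for NRP2, 3.86 for LAMB2, 3.59 for LDB3, 3.39 for ITGA7 and 3.36 for AQP1. SP6, a zinc finger transcription factor, was at 10.66 with avadomide, 7.09 with lenalidomide and 5.39 with DMSO in TMD8. NRP2, a receptor for semaphorins and VEGF, was at 10.59, 7.83 and 5.53. SP6, NRP2 and TNFRSF1A were under log2 7 with DMSO and were counted through the treated libraries where they were high, TNFRSF1A through avadomide alone. ITGA7, a laminin-binding integrin chain, was at 10.99, 7.74 and 7.38. Without SUDHL-4 the adjusted p was 0.0583 for TNFRSF1A, 0.0598 for LAMB2, 0.0706 for AQP1, 0.0730 for ITGA7, 0.0980 for NRP2 and 0.144 for SP6. Without WSU-DLCL2 it was 0.0528 for LAMB2, 0.0642 for ITGA7, 0.105 for IFI27, 0.147 for NRP2 and 0.184 for SP6, and without U2932 it was 0.0703 for IFI27.

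The TMD8 avadomide change was below the other lines by a difference of -4.28 for FRMPD1, -4.19 for CR1L, -2.96 for IL12B, -2.63 for SLC4A5, -2.57 for ADIRF, -2.20 for F5, -2.11 for TNIP3, -2.07 for PLEKHA7, -2.01 for MIR4432HG and -1.90 for PHLDA1. TNIP3, an inhibitor of NF-kB signalling, was at 9.76 with avadomide, 11.41 with lenalidomide and 11.59 with DMSO in TMD8, and at most 5.90 in the other lines. In the other lines FRMPD1 did not exceed 2.18 in any library, ADIRF 1.97, CR1L 3.71, MIR4432HG 4.72, LAMB2 4.73, LDB3 4.48 or IL12B 4.88, and for these genes a difference in response cannot be told apart from a difference in expression. Without SUDHL-4 the adjusted p was 0.0556 for F5, 0.0787 for MIR4432HG, 0.0817 for CR1L, 0.0823 for IL12B, 0.105 for ADIRF, and 0.108 for TNIP3 and for PLEKHA7. Without WSU-DLCL2 it was 0.0528 for PHLDA1, 0.0642 for F5, 0.0701 for CR1L, 0.0708 for ADIRF, 0.0771 for IL12B, 0.0994 for MIR4432HG, 0.103 for PLEKHA7, 0.104 for TNIP3 and 0.134 for FRMPD1, for which it was 0.0900 without U2932.

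For avadomide minus lenalidomide, the TMD8 difference was above that of the other lines by 4.02 for ACP5, 1.59 for SLAMF1, 1.47 for RND1, 1.15 for SULT1A1, 0.92 for SPI1 and 0.87 for ALDOC, and below it by a difference of -1.07 for TNFRSF17. Each of these calls for avadomide minus lenalidomide was lost when any 1 of the other lines was left out.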

How the results depend on the processing

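Calls of a TMD8 avadomide difference numbered 384, against 119 with no trend in the variance prior, 1616 with no filter, and 57 to 477 with 1 other line left out. Lenalidomide calls numbered 0, and 551 with no filter. Calls for avadomide minus lenalidomide numbered 9, against 4 with no trend, 15 with a robust prior, 33 after median-centring, 35 after quantile normalization, 1 with a filter of log2 5 in 4 libraries, 896 with no filter, 1 with only genes at mean log2 5 in each other line (chosen after seeing the data), and 0 to 2 with 1 line left out. Apart from the filters that change which genes are tested, the cause was not tested.

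Genes changed at least 2-fold in TMD8 with avadomide numbered 724, against 1092 at log2 5 and 412 at log2 9. With lenalidomide they numbered 147, against 81 at log2 9, 53 with log2 7 required with DMSO and 90 with a mean of log2 7. Between the compounds they numbered 366, against 584 at log2 5 and 196 at log2 9. With 1 line left out, the TMD8 avadomide difference ran from -0.10 to 0.068 for CRBN (above 0 without SUDHL-4), from -0.30 to 0.018 for IKZF1 (above 0 without U2932) and from -0.20 to 1.27 for IRF7 (below 0 without SUDHL-4); none of the 3 passed the test. Of 47 named genes called for avadomide, 26 lost the call with no trend, 29 without SUDHL-4, 30 without WSU-DLCL2 and 6 without U2932. The median residual SD, which measures how the other lines differed in their change, was 0.28 at mean log2 1 to 5, 0.13 at 5 to 10 and 0.06 at 10 to 15. Low genes thus had a larger residual SD. With 1 library per line and treatment, differences between lines and measurement noise cannot be told apart in it, and precision between cultures was not measured. The libraries are paired by cell line, which is a term of the reported fit.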
